A study of Bos taurus with 24 samples.

Results

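The collagen genes are described here in satellite cells of cattle, which are stem cells of skeletal muscle, grown with or without fibroblasts. They were taken as every gene of the count table whose symbol reads COL, a number, A and a number, which gave 23 of the 11937 genes. RNA of cells labelled as satellite cells from the longissimus dorsi, a long muscle of the back, was sequenced in 24 libraries. The labels give Bos taurus as the organism and WT as the genotype of every library, and a pool of 3 satellite cell lines at passage 3 was used throughout. In the coculture groups they were grown with fibroblasts at passage 10, of an origin the labels do not state, in plates with pores of 0.4 µm, and the other groups are labelled monoculture. All groups were seeded at 8000 cells per cm2 and kept for 5 days in high glucose medium with 20% fetal bovine serum, and 4 libraries of each culture were labelled as proliferation. A medium with 10% horse serum was then given to start differentiation, and 4 libraries of each culture were taken 24 h and 72 h later. The animals' age and breed, and whether the 4 libraries of a group came from separate cultures, are not stated in the labels, so p-values measure only the spread between these libraries, which may be technical.

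Collagens are secreted proteins whose chains wind into a triple helix, and each chain is the product of a gene of its own. Fibrillar collagens build the fibrils that bear tension, type IV forms the sheet of the basement membrane around each muscle fibre, FACIT collagens sit on the surface of fibrils, and type VI forms beaded filaments between basement membrane and fibrils. In muscle most collagen is laid down by fibroblasts of the connective tissue, and the matrix around satellite cells is part of their niche.

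Of the 44 bovine genes of this pattern in RefSeq (assembly ARS-UCD2.0), 9 of 11 fibrillar, 4 of 8 basement membrane, 3 of 10 FACIT and 7 of 15 other genes were among the genes listed. COL2A1 and COL11A2, known from cartilage, the chains COL4A3 to COL4A6, and the 3 chains of type IX were among the 21 that were not listed. No gene of the table has fewer than 6 counts in any of the 24 libraries, so a gene silent in any of them could not be among those listed. All 23 passed the filter on low counts, and 18 of the 23 averaged 100 CPM (counts scaled to a common library total) or more over the 24 libraries. The lowest was COL24A1, with 10 to 55 counts per library. Several members lie on the same chromosome near each other in the deposited coordinates, for which no label or header names a genome build. COL4A1 ends at position 84995777 of chromosome 12 and COL4A2 starts at 84995988, with 210 bp between them. COL5A2 and COL3A1 lie 17684 bp apart on chromosome 2. On chromosome 1, COL18A1 and COL6A1 lie 372140 bp apart, and COL6A1 and COL6A2 119192 bp apart. Whether other genes lie between these members was not checked.

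The library totals ran from 11.5 to 34.96 M counts. Markers of the labelled cell type were sparse: of 14 satellite cell and myogenic markers only DES, ITGA7 and NCAM1 were listed, and PAX7, MYF5, MYOD1 and MYOG were not among the genes listed. By contrast 8 of 13 fibroblast and fibro-adipogenic progenitor markers were listed, with a summed level of 2342 to 3564 CPM over all libraries, and 7 of 9 smooth muscle and pericyte markers, with 9228 to 20198 CPM. Of other cell types, 1 of 7 endothelial, 1 of 7 leukocyte, 2 of 6 adipocyte, 3 of 9 cartilage and bone and 1 of 4 Schwann cell markers were listed, and none of these lists summed to more than 39.4 CPM in any library. In bulk samples a change in the number of cells of a type and a change in RNA per cell cannot be told apart. The library names place all libraries on sequencing lane 6, except replicates 3 and 4 of coculture 24 h and all of coculture 72 h, which are on lane 7. All monoculture libraries are on lane 6, so at 72 h the cultures share no lane, and a lane term can be fitted only through the split group of coculture 24 h. In replicate 3 of monoculture 72 h, 7 of the 23 collagens lay above and 12 below the range of the other 3 replicates. COL18A1 was at 559 CPM there against 1072 to 1161 in the others, and COL3A1 at 33378 against 24930.0 to 26002. The share over all genes was not counted, and any 1 of 4 libraries is often the highest or lowest. Over all genes, chi-square per degree of freedom, which grows with the difference between 2 libraries, was 71.7 and 74.5 against replicates 1 and 2. It was 17.3 against replicate 4, which also differed from replicates 1 and 2 (34.4 and 42.1). The highest values, 117 to 144, were those of replicate 2 of coculture 24 h. Calls between the cultures at 72 h that changed without replicate 3 of monoculture 72 h are given with and without it. Such fits are given because a call changed, so their p-values are not separate evidence. Other values of monoculture 72 h include replicate 3 unless stated. Replicate 2 of coculture 24 h held 4.07% nuclear ribosomal RNA, the highest of the 24 libraries. Next came replicate 1 of coculture 72 h with 2.24% and replicates 3 and 4 of monoculture 72 h with 2.14% and 1.76%.

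Collagen RNA took up a large part of every library, and its mean share of all counts was larger at each later time in both cultures. In monoculture the 23 genes together held 9.28 ± 0.22% (SD, n = 4) of counts in proliferation, 13.8 ± 0.454% at 24 h and 15.7 ± 0.352% at 72 h. In coculture the shares were 10.6 ± 0.116%, 13.3 ± 0.974% and 15.5 ± 0.23%. The cultures did not overlap in proliferation, with 9.05 to 9.57% in monoculture and 10.5 to 10.8% in coculture, and they overlapped at 24 h and 72 h. The lowest value at 24 h, 11.9%, was that of the coculture library rich in ribosomal RNA. COL1A1, COL1A2 and COL3A1, the chains of types I and III, made up 5.92 ± 0.194% of counts in monoculture in proliferation and 11.04 ± 0.326% at 72 h. These shares grow with transcript length as well as with the number of transcripts, and no lengths were given, so levels are compared below between groups and not between genes. The basement membrane collagens held 0.71 ± 0.0141%, 1.23 ± 0.0764% and 0.984 ± 0.174% in monoculture and 0.951 ± 0.0203%, 1.13 ± 0.0773% and 0.802 ± 0.014% in coculture. Their mean share was highest at 24 h in both cultures, while that of the fibrillar collagens was highest at 72 h.

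**Figure D1:**
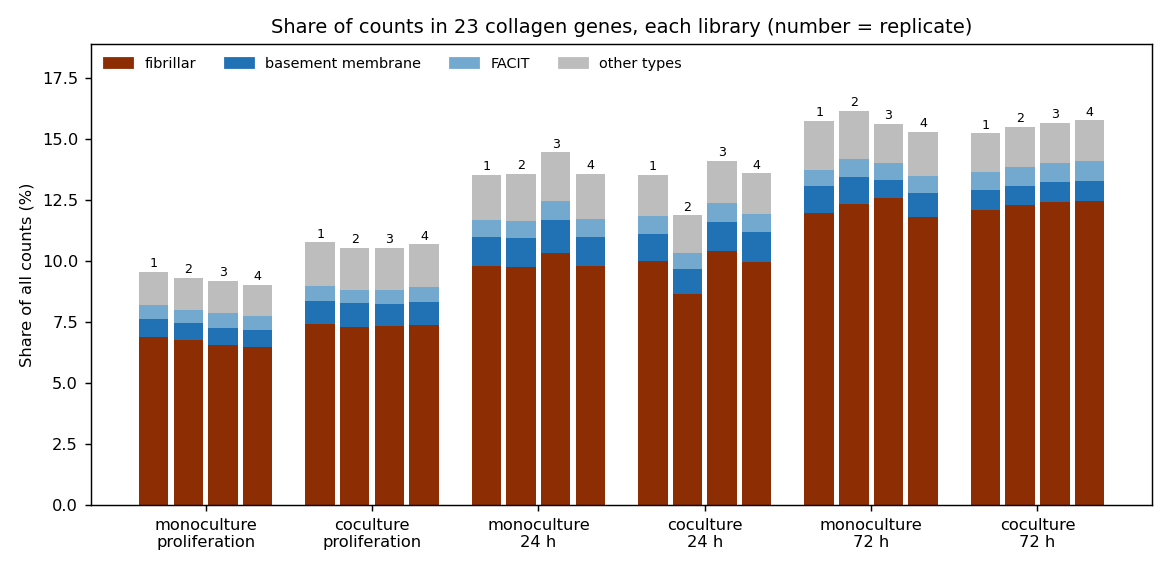
Share of all counts (%, vertical axis) held by the 23 collagen genes in each of the 24 libraries, stacked by collagen type, with the replicate number above each bar. The total lies between 9.05% and 9.57% in monoculture in proliferation and between 15.2% and 16.2% in all 8 libraries at 72 h, and fibrillar collagens make up most of every bar.

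In proliferating cells, collagens of the basement membrane, the 3 main chains of type VI and both chains of type I were higher in coculture than in monoculture. Of the 23 genes 13 rose and 3 fell in coculture, by edgeR's quasi-likelihood test with Benjamini-Hochberg adjustment over all 11937 genes at an adjusted p under 0.05. Of all genes tested 59% were called in this comparison, 30.3% higher and 28.7% lower. The median log2 fold change of coculture over monoculture was 0.25 for the collagens and 0.00 for all genes. All 4 basement membrane genes rose, as did 4 of 9 fibrillar, 1 of 3 FACIT and 4 of 7 other genes. The largest rises were those of COL18A1, COL6A3 and COL1A1, and the 3 that fell were COL6A5, COL11A1 and COL8A1. The libraries of the cultures did not overlap for 17 collagens, 13 higher and 4 lower in coculture, against 53% of all genes, 27.1% higher and 25.9% lower. With library sizes alone as the scaling, 9 rose and 4 fell, with COL1A2, COL5A2, COL14A1 and COL8A2 not called, against 22.4% of all genes higher and 34.3% lower and a median of all genes shifted by -0.07. In a test against a fold of 1.2 in place of any difference, 8 rose and 0 fell, against 19.8% of all genes called. Of the 7 listed smooth muscle and pericyte markers 5 rose and 2, MYH11 and MCAM, fell. Their summed level was 18447 to 20198 CPM in coculture and 15279.8 to 15414 CPM in monoculture. Most of that sum was ACTA2, with means of 14000 CPM in coculture and 11368 CPM in monoculture. Of the 3 listed myogenic markers 2 rose and 0 fell, with a summed level of 157 to 174 CPM in coculture and 112 to 117 CPM in monoculture. Of the 8 listed fibroblast markers 3 rose and 4 fell, and they summed to 2700.0 to 2864 CPM in coculture and 3383 to 3555 CPM in monoculture. The part of these marker lists in the collagen result was not tested.

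At 24 h after the change of medium the differences were fewer and mostly in the other direction. 1 collagen rose in coculture, COL5A3, and 7 fell, against 23.8% of all genes called, 11.5% higher and 12.2% lower. The collagens' median log2 fold change was -0.12, beside 0.00 for all genes. COL27A1, COL7A1 and COL8A1 fell most, and COL15A1, COL16A1, COL6A1 and COL6A2 also fell. The cultures did not overlap for 10 collagens, 1 higher and 9 lower, against 24.4% of all genes, 12.1% higher and 12.3% lower. Tested against a fold of 1.2, COL27A1 and COL7A1 kept their calls, against 3.24% of all genes. Among the lane 6 libraries alone, 8 collagens were called, 1 higher and 7 lower, against 14.6% of all genes. At this time 2 of 7 smooth muscle and pericyte markers and 2 of 3 myogenic markers fell and none rose, and of 8 fibroblast markers 3 rose and 2 fell. Their part in the collagen result was not tested.

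At 72 h 11 of 23 collagens were lower in coculture and 0 higher, against 50.5% of all genes called, 25.1% higher and 25.4% lower. COL27A1, COL8A2 and COL7A1 fell most, and COL1A1, COL1A2, COL11A1, COL4A1, COL4A2, COL16A1, COL6A1 and COL6A2 were the other 8. The collagens' median log2 fold change was -0.21, beside 0.00 for all genes. The cultures did not overlap for 10 collagens, all lower in coculture, against 42% of all genes, 21.1% higher and 20.8% lower. Without replicate 3 of monoculture 72 h, 2 were called higher and 13 lower: COL3A1 and COL5A2 were then called higher, COL18A1, COL5A3 and COL6A5 lower, and COL1A2 was no longer called, against 48.8% of all genes called. With lane as a covariate 0 were higher and the same 11 lower, against 28.5% of all genes called. With library sizes alone the split was 3 higher (COL3A1, COL5A2 and COL12A1) and 9 lower, with COL1A1 and COL1A2 not called and the median of all genes shifted by 0.13, against 39.6% of all genes higher and 12.98% lower. Tested against a fold of 1.2 it was 0 and 7, against 17.8% of all genes called. All 7 listed smooth muscle and pericyte markers were also lower, with a summed level of 9228 to 10299 CPM in coculture against 14003 to 16357 in monoculture, and so were the 3 myogenic markers. Among 8 fibroblast and fibro-adipogenic progenitor markers 3 were higher and 2 lower. Their part in the collagen result was not tested.

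**Figure D2:**
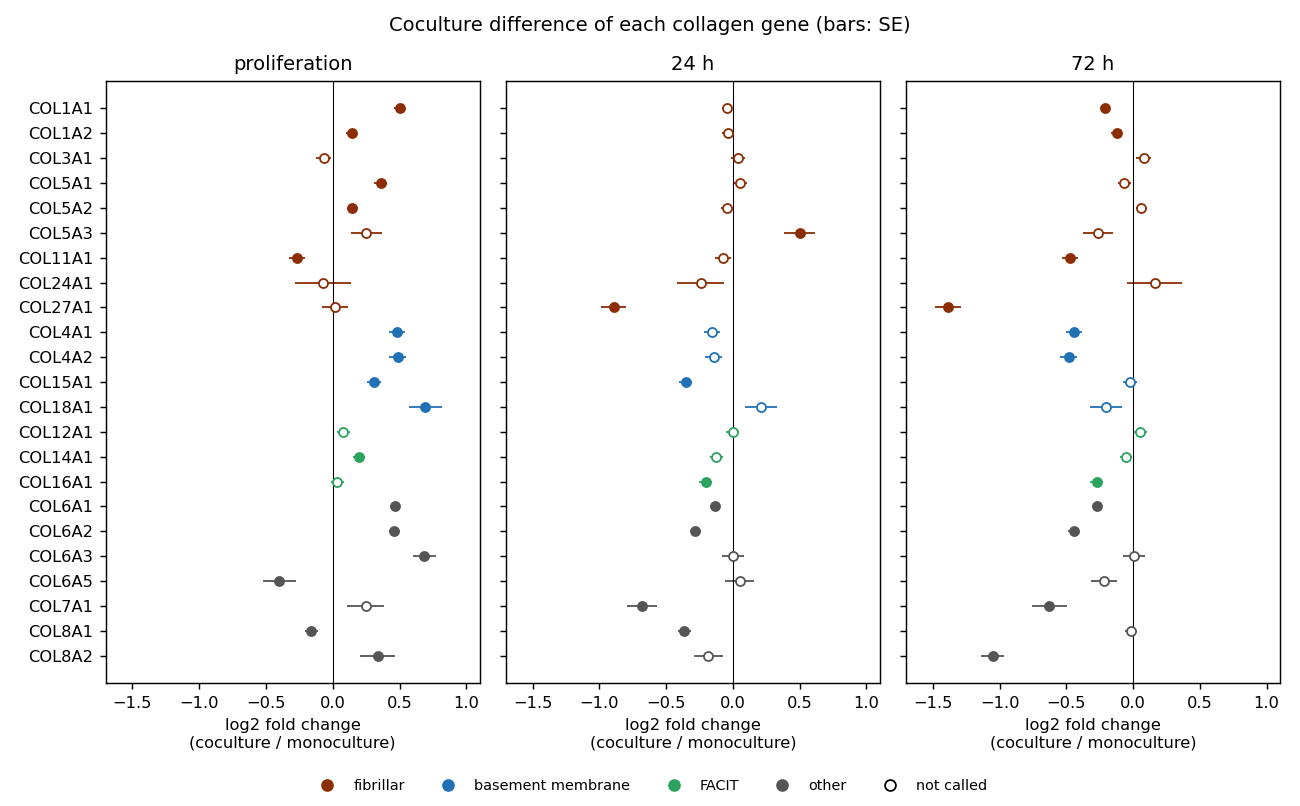
Log2 fold change of coculture over monoculture (horizontal axis, with SE from edgeR) for each of the 23 collagen genes in proliferation, at 24 h and at 72 h, coloured by type, with open symbols for genes not called at an adjusted p under 0.05. The basement membrane genes and COL6A1, COL6A2 and COL1A1 lie to the right of 0 in proliferation, and 11 genes are called to the left at 72 h.

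The collagens that rose in proliferation and those that fell at 72 h were in part the same genes. COL1A1, COL1A2, COL4A1, COL4A2, COL6A1, COL6A2 and COL8A2, 7 in all, were called higher in coculture in proliferation and lower at 72 h. These 7 are 7 of the 13 that rose in proliferation and 7 of the 11 that fell at 72 h, and of all genes tested 11.4% were called higher in proliferation and lower at 72 h. With library sizes alone COL4A1, COL4A2, COL6A1 and COL6A2, 4 in all, were called so, against 3.91% of all genes, and with lane as a covariate the 7 were, against 6.59%. Another 5, COL5A1, COL5A2, COL18A1, COL14A1 and COL6A3, were called higher in proliferation and at neither later time. COL3A1, COL24A1 and COL12A1 were not called at any time, and none of the 23 was called in 1 direction at all 3 times. By type, the median log2 fold changes in proliferation, at 24 h and at 72 h were 0.14, -0.04 and -0.12 for fibrillar, 0.48, -0.15 and -0.32 for basement membrane, 0.08, -0.12 and -0.05 for FACIT and 0.34, -0.19 and -0.27 for the other genes.

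Type I collagen, the main fibrillar collagen of connective tissue, is built from the products of COL1A1 and COL1A2. In proliferation COL1A1 was at 19205, 17888, 17602 and 16753 CPM in monoculture replicates 1 to 4 and at 25666, 24853, 25336 and 25206 CPM in coculture. Every coculture library was above every monoculture library (log2 fold change 0.50 ± 0.04, adjusted p = 1.4e-11). At 24 h the levels were 41049.8, 39689.9, 44967 and 40123 CPM in monoculture and 40192, 37668, 43098 and 39977 CPM in coculture, which overlapped (log2 fold change -0.04 ± 0.04, adjusted p = 0.46). At 72 h they were 61048, 62156, 62779.7 and 60219 CPM in monoculture and 55096, 51789.9, 52604 and 53070.5 CPM in coculture, with all coculture libraries below (log2 fold change -0.21 ± 0.04, adjusted p = 3.6e-05); with library sizes alone the value was -0.08 and was not called. For COL1A2 the means were 20302 ± 686, 29212 ± 918 and 34505 ± 3159 CPM (SD, n = 4) in monoculture and 22395 ± 218, 28435 ± 1342 and 31669 ± 804 CPM in coculture. Its log2 difference was 0.14 ± 0.04 in proliferation (adjusted p = 0.0051), -0.04 ± 0.04 at 24 h and -0.12 ± 0.04 at 72 h (adjusted p = 0.016). The 72 h call was lost without replicate 3 of monoculture 72 h (-0.06, adjusted p = 0.12) or without replicate 2 of coculture 72 h (-0.11, adjusted p = 0.057), and with library sizes alone the sign turned (0.01).

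Type III collagen, a homotrimer of the COL3A1 product found in fibrils with type I, was not called between cultures at any time when all libraries were used. COL3A1 was at 14848 ± 415 and 14164 ± 212 CPM in monoculture and coculture in proliferation, 20543 ± 1018 and 21084 ± 947 CPM at 24 h, and 27467 ± 3965 and 28998 ± 717 CPM at 72 h. The log2 differences were -0.07 ± 0.06, 0.04 ± 0.06 and 0.08 ± 0.06, with adjusted p-values of 0.3, 0.68 and 0.25. At 72 h the single values were 24930.0, 26002, 33378 and 25558 CPM in monoculture and 27964, 29121, 29307 and 29599.9 CPM in coculture. Without monoculture replicate 3, all coculture libraries were above and the difference was 0.19 (adjusted p = 2.5e-05). That library held the highest value of its group, so leaving it out was a choice made from these same data. The p-value without it is not separate evidence. Over the first 24 h COL3A1 rose by 0.47 in monoculture and 0.57 in coculture on the log2 scale.

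Type V collagen, with the chains COL5A1, COL5A2 and COL5A3, enters the core of type I fibrils and limits their width, and COL11A1 is a chain of its relative, type XI. COL5A1 rose in coculture in proliferation, from 1712 ± 27.9 to 2198 ± 77.3 CPM (log2 fold change 0.36 ± 0.05, adjusted p = 2.5e-07), and COL5A2 from 3222 ± 29.4 to 3563 ± 35.4 CPM (log2 fold change 0.14 ± 0.04, adjusted p = 0.0031). Neither was called at 24 h or 72 h, where COL5A1 gave 0.06 and -0.06 and COL5A2 gave -0.05 and 0.06. Without replicate 3 of monoculture 24 h, which held the highest COL5A1 level of its group, COL5A1 was called at 24 h (0.13, adjusted p = 0.015). COL5A3, the less common chain of type V, was the only collagen higher in coculture at 24 h, with 142, 156, 179 and 169.5 CPM in monoculture and 234, 201, 241 and 238 CPM in coculture. Those libraries did not overlap (log2 fold change 0.50 ± 0.11, adjusted p = 0.0015). At 72 h COL5A3 was at 308, 304, 158 and 278 CPM in monoculture and 233, 197, 214 and 227 CPM in coculture (log2 fold change -0.27 ± 0.11, adjusted p = 0.051), and without monoculture replicate 3, the lowest of the 4, the difference was -0.44 (adjusted p = 8.6e-07). Without replicate 1 of coculture 72 h the difference was -0.30 (adjusted p = 0.043). Both fits are given because the call changed, so their p-values are not separate evidence. COL11A1 fell in coculture in proliferation, from 1730.4 ± 33.2 to 1437 ± 26.5 CPM (log2 fold change -0.27 ± 0.06, adjusted p = 2.2e-04), and was not called at 24 h (-0.08 ± 0.06). At 72 h it was at 3160.4, 3345, 4068 and 3124 CPM in monoculture and 2615, 2302, 2449 and 2500.4 CPM in coculture, again lower in every coculture library (log2 fold change -0.47 ± 0.06, adjusted p = 5.1e-08).

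The developmental fibrillar collagens XXIV and XXVII were listed at low levels. COL27A1, known from cartilage and other developing tissues, had the largest coculture difference of the 23 at both later times. In proliferation its libraries overlapped, with means of 10.6 ± 1.08 CPM in monoculture and 10.5 ± 1.19 CPM in coculture. At 24 h it was at 17.8, 17.9, 21.4 and 18.6 CPM in monoculture and 9.81, 9.85, 9.85 and 11.1 CPM in coculture (log2 fold change -0.89 ± 0.09, adjusted p = 2.0e-08). At 72 h it was at 21.8, 21.04, 20.5 and 19.7 CPM in monoculture and 9.36, 6.09, 7.92 and 8.39 CPM in coculture (log2 fold change -1.39 ± 0.10, adjusted p = 7.5e-13). The cultures were thus apart in every library at both times, while its monoculture level had risen by 0.84 on the log2 scale over the first 24 h. COL24A1, at 1.06 to 1.35 CPM in monoculture in proliferation and 1.63 to 2.42 CPM at 24 h, was not called between cultures (-0.07, -0.24 and 0.16, with SEs of 0.21, 0.17 and 0.21).

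Type IV collagen is the network collagen of basement membranes, and its most common form joins the products of COL4A1 and COL4A2, genes that lie head to head and share a promoter region. In proliferation COL4A1 was at 3629, 3393, 3520.4 and 3475 CPM in monoculture and 4933, 4999, 4779 and 4822 CPM in coculture, apart in every library (log2 fold change 0.48 ± 0.06, adjusted p = 1.1e-07). At 24 h it was at 7131, 6443, 7759 and 6782 CPM in monoculture and 6217, 6047, 6519 and 6409 CPM in coculture (log2 fold change -0.16 ± 0.06, adjusted p = 0.058), and it was called there without replicate 2 of monoculture 24 h (-0.20, adjusted p = 0.026). At 72 h it was at 7367, 7524, 5494 and 6748 CPM in monoculture and 5066, 4782, 5026 and 5069.8 CPM in coculture, lower in coculture in every library (log2 fold change -0.44 ± 0.06, adjusted p = 4.3e-07). COL4A2 gave nearly the same differences, 0.49 ± 0.06, -0.14 ± 0.06 and -0.48 ± 0.06, with adjusted p-values of 2.1e-07, 0.1 and 2.7e-07. Its means were 1490.2 ± 40.6, 3173 ± 268 and 2952 ± 408 CPM in monoculture and 2089 ± 85.7, 2869 ± 122 and 2114 ± 40.7 CPM in coculture.

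The multiplexins XV and XVIII are proteoglycans of the basement membrane zone, and a fragment of type XVIII is known as endostatin. COL18A1 had the largest rise of the 23 in proliferation, from 717, 722, 755 and 730.3 CPM in monoculture to 1176, 1246, 1158 and 1149.8 CPM in coculture, with no overlap (log2 fold change 0.69 ± 0.12, adjusted p = 1.5e-05). At 24 h its means were 1421 ± 174 and 1647 ± 115 CPM (log2 fold change 0.21 ± 0.12, adjusted p = 0.21). At 72 h its levels were 1138, 1161, 559 and 1072 CPM in monoculture and 898, 825, 861 and 831 CPM in coculture (log2 fold change -0.20 ± 0.12, adjusted p = 0.16). The lowest of those 8 values is that of monoculture replicate 3. Without it COL18A1 was lower in coculture in every library (-0.40, adjusted p = 2.3e-06). The library was left out for its value in these same data, so that p-value is not separate evidence. COL15A1 was higher in coculture in proliferation, at 782, 762, 763 and 791 against 632, 602, 635 and 635 CPM (log2 fold change 0.31 ± 0.05, adjusted p = 7.6e-06). It was lower at 24 h, at 708, 717, 754 and 746 against 881, 916, 998 and 946 CPM (log2 fold change -0.35 ± 0.05, adjusted p = 4.5e-06). By 72 h both cultures had dropped to a like level, 207 to 257 CPM in monoculture and 206 to 228 CPM in coculture.

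The FACIT collagens, which lie on fibrils and link them to other matrix, had log2 differences between -0.27 and 0.20 at all 3 times. COL12A1, of tendon and muscle connective tissue, was not called at any time, with log2 differences of 0.08, 0.00 and 0.05, but without replicate 2 of coculture proliferation it was called higher there (0.13). Its group means ran from 4632 to 7234 CPM. COL14A1 rose in coculture in proliferation, from 265 ± 9.18 to 304 ± 12.1 CPM (log2 fold change 0.20 ± 0.05, adjusted p = 6.0e-04), and was not called later (-0.12 and -0.05), except at 24 h without replicate 2 of monoculture 24 h (-0.15, adjusted p = 0.036). COL16A1 was not called in proliferation (0.03 ± 0.05) and fell at 24 h (log2 fold change -0.20 ± 0.05, adjusted p = 0.0017) and at 72 h (log2 fold change -0.27 ± 0.05, adjusted p = 1.7e-05).

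Type VI collagen, whose loss causes muscle disease in humans, joins the products of COL6A1, COL6A2 and one further chain, most often COL6A3. In proliferation COL6A1 was at 5003, 4771, 4836 and 4832 CPM in monoculture and 6766, 6762, 6698 and 6659 CPM in coculture, and COL6A2 at 4909 ± 166 and 6749 ± 159 CPM. Both rose in coculture, COL6A1 by 0.47 ± 0.04 (adjusted p = 1.3e-11) and COL6A2 by 0.46 ± 0.04 (adjusted p = 2.4e-10) on the log2 scale. At 24 h COL6A1 was at 7269, 7488, 8133 and 7314 CPM in monoculture and 6911, 6714, 7145 and 6769 CPM in coculture, and at 72 h at 8434, 8306, 7684 and 7889 CPM in monoculture and 6813, 6544, 6600.1 and 6826 CPM in coculture, lower in every coculture library at both times. The differences were -0.13 ± 0.04 and -0.27 ± 0.04 for COL6A1 and -0.28 ± 0.04 and -0.44 ± 0.04 for COL6A2, with adjusted p-values of 0.0069, 2.6e-07, 6.4e-06 and 2.8e-10. COL6A3 was called in proliferation alone. It rose there from 1568, 1449, 1557 and 1449.9 CPM in monoculture to 2639, 2201, 2335 and 2521 CPM in coculture (log2 fold change 0.69 ± 0.08, adjusted p = 4.6e-08), and its later differences were 0.00 ± 0.08 and 0.00 ± 0.08, with means of 2338 ± 395 CPM in monoculture and 2343 ± 97.9 CPM in coculture at 72 h. COL6A5, an alternative to COL6A3, fell in proliferation (log2 fold change -0.40 ± 0.12, adjusted p = 0.0065) at levels of 7.69 ± 0.136 CPM in monoculture and 5.87 ± 0.36 CPM in coculture. It was not called at 72 h with all libraries and was called lower without monoculture replicate 3 (-0.34, adjusted p = 0.0011, against -0.22 with it).

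Type VII collagen forms anchoring fibrils below epithelia, and type VIII is a short-chain network collagen of vessel walls and of the cornea. COL7A1 was at 18.97, 17.1, 23.4 and 17.7 CPM in monoculture and 11.8, 11.02, 13.004 and 12.3 CPM in coculture at 24 h (log2 fold change -0.68 ± 0.11, adjusted p = 3.7e-05) and at 13.6, 13.1, 8.31 and 11.2 CPM in monoculture and 7.11, 7.94, 7.05 and 8.01 CPM in coculture at 72 h (log2 fold change -0.63 ± 0.13, adjusted p = 1.8e-04). All coculture libraries were lower at both times. In proliferation its difference was 0.25 and not called, and 0.36 without replicate 1 of monoculture (adjusted p = 0.033). COL8A2 was at 41.8, 44.6, 41.0 and 40.9 CPM in monoculture and 23.2, 19.5, 20.3 and 18.4 CPM in coculture at 72 h, the second-largest difference of the 23 there (log2 fold change -1.05 ± 0.09, adjusted p = 1.3e-11). Its rise in proliferation, from 4.80 ± 0.97 to 6.05 ± 0.899 CPM (log2 fold change 0.34 ± 0.13, adjusted p = 0.027), lost its call without replicate 2 or 4 of the monoculture or replicate 4 of the coculture, where it was 0.24, 0.29 and 0.24. COL8A1, the partner chain, fell in coculture in proliferation (log2 fold change -0.16 ± 0.05, adjusted p = 0.0047) and at 24 h (log2 fold change -0.36 ± 0.05, adjusted p = 8.0e-07), and its levels at 72 h, 607 ± 36.5 and 601 ± 25.7 CPM, gave a difference of -0.02 ± 0.05 that was not called.

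**Figure D3:**
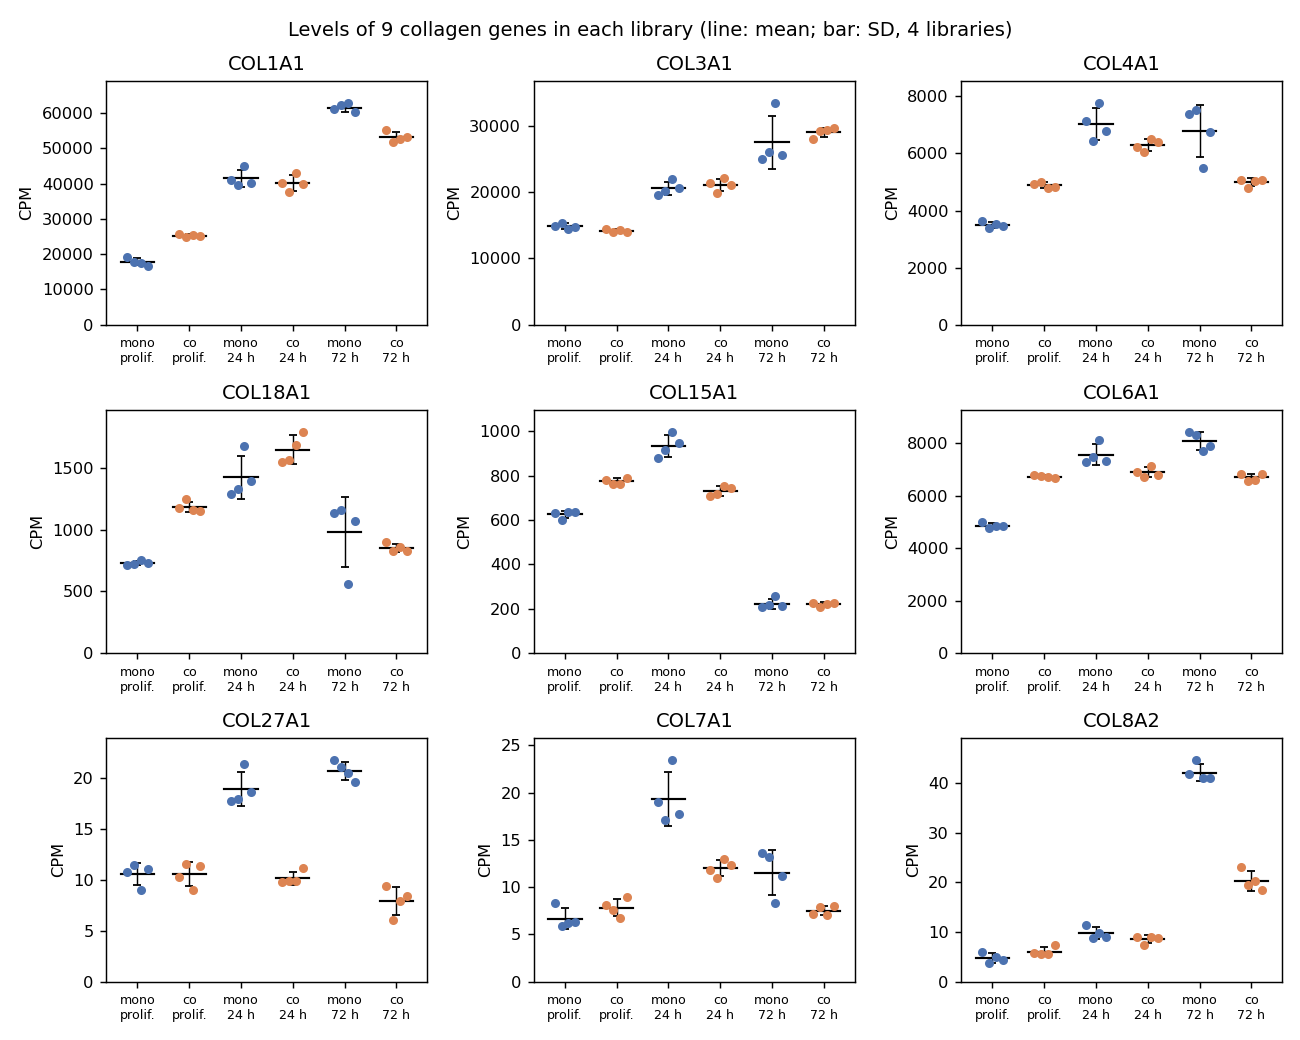
Level of 9 collagen genes in every library (vertical axis, CPM scaled by TMM factors, starting at 0) for monoculture (blue) and coculture (orange) in proliferation, at 24 h and at 72 h, with the mean as a line and the SD as a bar (n = 4). COL1A1 is higher at each later time in both cultures, COL15A1 drops to between 206 and 257 CPM at 72 h, and COL27A1 is apart between cultures at 24 h and 72 h.

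Over the first 24 h after the change of medium nearly every collagen rose in monoculture. 22 of 23 were called higher and 0 lower, against 68.5% of all genes called, 34.3% higher and 34.2% lower. The collagens' median log2 fold change was 0.71, and that of all genes 0.00. COL7A1 (1.54 ± 0.12), COL1A1 (1.21 ± 0.04) and COL4A2 (1.09 ± 0.07) rose most, and COL5A3 (0.24 ± 0.11, adjusted p = 0.066) was the 1 not called; without replicate 1 of monoculture 24 h it was called (0.29). In coculture 18 rose and 0 fell, against 43.2% of all genes called, 21% higher and 22.2% lower, with a median of 0.46 beside -0.01. COL6A5 (0.90 ± 0.12), COL24A1 (0.72 ± 0.19) and COL1A1 (0.67 ± 0.04) rose most there. The levels of COL6A5 and COL24A1 were low, with coculture means of 5.87 and 1.11 CPM in proliferation and 10.9 and 1.84 CPM at 24 h. The 5 not called in coculture were COL15A1 (-0.08), COL27A1 (-0.07), COL6A1 (0.03), COL6A2 (0.04) and COL6A3 (0.11), which in monoculture rose by 0.58, 0.84, 0.64, 0.78 and 0.79. With library sizes alone the median of all genes shifted by -0.19 in monoculture and -0.12 in coculture, COL6A5 lost its call in monoculture (0.27) and COL15A1 was called lower in coculture (-0.21). The counts were then 21 higher and 0 lower in monoculture, against 20.4% and 48.9% of all genes, and 18 and 1 in coculture, against 10.9% and 39.5%. Tested against a fold of 1.2, 22 rose in monoculture and 12 in coculture and none fell, against 38.7% and 10.1% of all genes called. Of the 7 smooth muscle and pericyte markers 6 rose and 1 fell in monoculture and 4 rose and 2 fell in coculture, and of the 3 myogenic markers 3 rose in monoculture and 1 rose and 1 fell in coculture. Of the 8 fibroblast markers 3 rose and 4 fell in monoculture and 4 rose and 2 fell in coculture. Their part in the collagen result was not tested. The label code in the descriptions is 1 for monoculture at 24 h and 72 h and 2 for the other groups. Its meaning is not given. In monoculture this code cannot be told apart from the step between proliferation and the later times. At 24 h and 72 h the code and culture cannot be told apart either, while in proliferation both cultures carry code 2. A change of the coculture difference from proliferation to 24 h thus cannot be told apart from the code.

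From 24 h to 72 h most fibrillar genes rose and no basement membrane gene did. In monoculture 12 collagens rose and 6 fell, against 53.9% of all genes called, 27.3% higher and 26.6% lower, and in coculture 10 rose and 7 fell, against 48.2%, 24.4% and 23.8%. The medians were 0.14 and 0.00, beside 0.00 and 0.00 for all genes. Of the 9 fibrillar genes 7 rose and 1 fell in monoculture, and 6 rose and 1 fell in coculture, with COL1A1 at 0.57 ± 0.04 and 0.40 ± 0.04. Of the 4 basement membrane genes none rose in either culture: 2 fell in monoculture and all 4 in coculture. With library sizes alone the monoculture split was 8 higher and 9 lower, against 14.98% and 40.5% of all genes, and COL6A1, at 0.10 in the TMM scaling, turned to -0.03. COL4A1, COL4A2 and COL6A3 were then called lower (-0.17, -0.23 and -0.28), and COL5A2, COL16A1 and COL6A2 were not called. Of the 7 smooth muscle and pericyte markers 5 fell in monoculture and 7 in coculture and none rose. Of the 3 myogenic markers 3 rose in monoculture, and 1 rose and 2 fell in coculture, and of the 8 fibroblast markers 2 rose and 3 fell in monoculture and 4 rose and 3 fell in coculture. The part of these markers in the collagen result was not tested. The monoculture rise of COL6A1 was also lost without replicate 1, 2 or 4 at 24 h or replicate 1 or 2 at 72 h, and COL6A3 was called lower without replicate 1 at 24 h or replicate 2 at 72 h (-0.23 and -0.22). In coculture the rises of COL16A1 (0.12), COL12A1 (0.12) and COL5A1 (0.15) were lost in 6, 5 and 1 of the 8 fits that leave out 1 library.

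COL15A1 and COL8A2 stood at the ends of this comparison. COL15A1 fell from 881, 916, 998 and 946 CPM to 207, 216, 257 and 214 CPM in monoculture (log2 fold change -2.07 ± 0.05, adjusted p = 3.6e-24) and by 1.73 ± 0.05 in coculture. COL8A2 rose from 11.4, 8.74, 9.90 and 9.04 CPM to 41.8, 44.6, 41.0 and 40.9 CPM in monoculture (log2 fold change 2.11 ± 0.09, adjusted p = 1.8e-18) and by 1.25 ± 0.10 in coculture. The libraries of the compared times did not overlap for either gene in either culture. After these, COL6A5 (0.74) and COL5A3 (0.70) rose most in monoculture and COL6A5 (0.47) and COL3A1 (0.46) in coculture. COL24A1 (-0.79) and COL7A1 (-0.73) fell most in monoculture, and COL18A1 (-0.95) and COL7A1 (-0.67) in coculture. The level of COL24A1 was low, with monoculture means of 2.17 CPM at 24 h and 1.24 CPM at 72 h. The monoculture values of COL6A5, COL5A3 and COL7A1 include replicate 3 of monoculture 72 h, which lay below the other replicates for each. COL18A1 also fell in monoculture (-0.53, and -0.34 without replicate 3 of monoculture 72 h). With lane as a covariate in coculture, COL1A2, COL5A1, COL12A1 and COL16A1 lost their calls (0.12, 0.09, 0.10 and 0.08), and among lane 7 libraries alone 9 collagens rose and 8 fell, against 44.6% of all genes called.

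**Figure D4:**
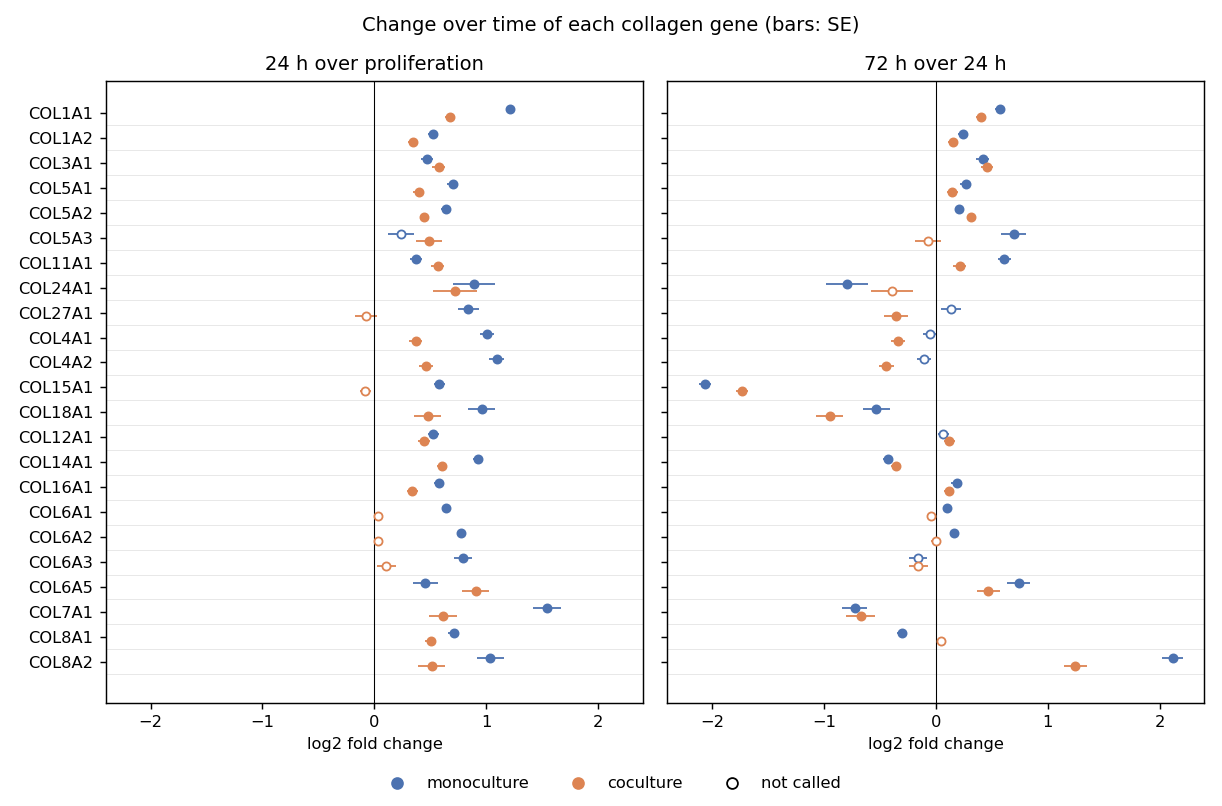
Log2 fold change of 24 h over proliferation (left) and of 72 h over 24 h (right) with SE from edgeR for each of the 23 collagen genes in monoculture (blue) and coculture (orange), open symbols marking genes not called. On the left 22 monoculture values are called to the right of 0, and on the right COL15A1 and COL8A2 lie farthest out in both cultures.

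The test of the change itself compared the coculture difference at 24 h with that in proliferation. It went down for 17 of 23 collagens and up for 2, against 50.5% of all genes called, 26.2% lower and 24.3% higher, with a median of -0.32 beside -0.01. COL7A1 (-0.93 ± 0.18), COL27A1 (-0.91 ± 0.14) and COL6A2 (-0.74 ± 0.06) went down most, and COL6A5 (0.45 ± 0.16) and COL11A1 (0.19 ± 0.08) went up. All 4 basement membrane genes and all 3 main chains of type VI were among those that went down (COL6A3, -0.69 ± 0.12). From 24 h to 72 h it went down for 9 and up for 2, against 23.7% of all genes called, 11.7% lower and 12% higher, with a median of -0.12 beside 0.00. COL8A2 (-0.87 ± 0.14), COL5A3 (-0.76 ± 0.16) and COL27A1 (-0.49 ± 0.14) went down most, and COL8A1 (0.35 ± 0.07) and COL15A1 (0.33 ± 0.07) went up. The second step of COL1A1, COL6A1 and COL6A2 (-0.17, -0.14 and -0.16) lost its call in 4, 13 and 9 of the 16 fits that leave out 1 library, and with library sizes alone these 3, COL4A1 and COL4A2 were not called and the split was 3 up and 4 down, against 24.4% of all genes up and 4.16% down. In the first step the rises of COL11A1 and COL6A5 lost their calls in 12 and 3 of 16 such fits, as did the fall of COL18A1 without replicate 3 of monoculture 24 h (-0.39, adjusted p = 0.059). With lane as a covariate the first step gave 0 up and 17 down, against 46.5% of all genes called, and COL11A1 (0.16, adjusted p = 0.17) and COL6A5 (0.39, adjusted p = 0.086) were not called. In the second step it gave 2 up and 7 down, against 20.2%, with COL6A1 and COL6A2 not called (-0.15 and -0.18). The count of the second step ran from 8 to 15 over the fits that leave out 1 library, with 15 without replicate 3 of monoculture 72 h, where COL18A1 (-0.61) and COL6A5 (-0.39) were called lower and COL3A1 (0.15) and COL5A2 (0.15) higher. The same test put 5 of 7 smooth muscle and pericyte markers down and 1 up in the first step and 7 down in the second, and 3 and 2 of 3 myogenic markers down. Of 8 fibroblast markers 4 went up and 1 down in the first step and 2 up and 3 down in the second, and the part of these markers was not tested. All these comparisons share libraries with the ones above, so their values are not independent of them.

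Chains of 1 protein were compared by the ratio of their counts within a library, which no scaling factor touches. COL3A1 of type III was also set against COL1A1 of type I, which are chains of different proteins. Since chains differ in length, only the change of a ratio between groups can be read. The ratio of COL4A1 to COL4A2 stayed between 2.16 and 2.42 in all 24 libraries, and the cultures overlapped except at 72 h, where it was 2.36 ± 0.029 in coculture and 2.30 ± 0.021 in monoculture. The ratio of COL1A1 to COL1A2 went from 0.879 ± 0.023 (SD, n = 4) in monoculture in proliferation to 1.42 ± 0.048 at 24 h and 1.79 ± 0.13 at 72 h, and in coculture from 1.13 ± 0.02 to 1.41 ± 0.015 and 1.68 ± 0.015. In proliferation all 4 coculture ratios were above all monoculture ratios, and at the later times the cultures overlapped. At 72 h the overlap came from replicate 3 of monoculture alone, at 1.60. The other monoculture ratios were 1.83 to 1.89, all above those of coculture, 1.66 to 1.69. The ratio of COL3A1 to COL1A1 was 0.833 ± 0.045 in monoculture and 0.561 ± 0.0052 in coculture in proliferation, with no overlap. At 24 h it was 0.496 ± 0.018 and 0.524 ± 0.0078 and at 72 h 0.446 ± 0.058 and 0.546 ± 0.026, with the higher mean in coculture at both times and with overlap. The overlap at 72 h also came from replicate 3 of monoculture alone, at 0.532. Its other ratios in monoculture were 0.408 to 0.424, all below those of coculture, 0.508 to 0.562. In type V, COL5A1 over COL5A2 was higher in every coculture library in proliferation (0.617 ± 0.018 against 0.531 ± 0.012), and COL5A3 over COL5A2 at 24 h (0.047 ± 0.0022 against 0.0323 ± 0.003). COL6A3 over COL6A1 was higher in every coculture library in proliferation (0.361 ± 0.029 against 0.31 ± 0.0099) and at 72 h (0.35 ± 0.013 against 0.288 ± 0.04). The ratio of COL6A1 to COL6A2 was 0.991 ± 0.024, 0.899 ± 0.027 and 0.857 ± 0.023 in monoculture and 0.996 ± 0.017, 0.996 ± 0.0058 and 0.966 ± 0.0047 in coculture, higher in every coculture library at 24 h and 72 h. These ratios are given as descriptions, with no test.

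**Figure D5:**
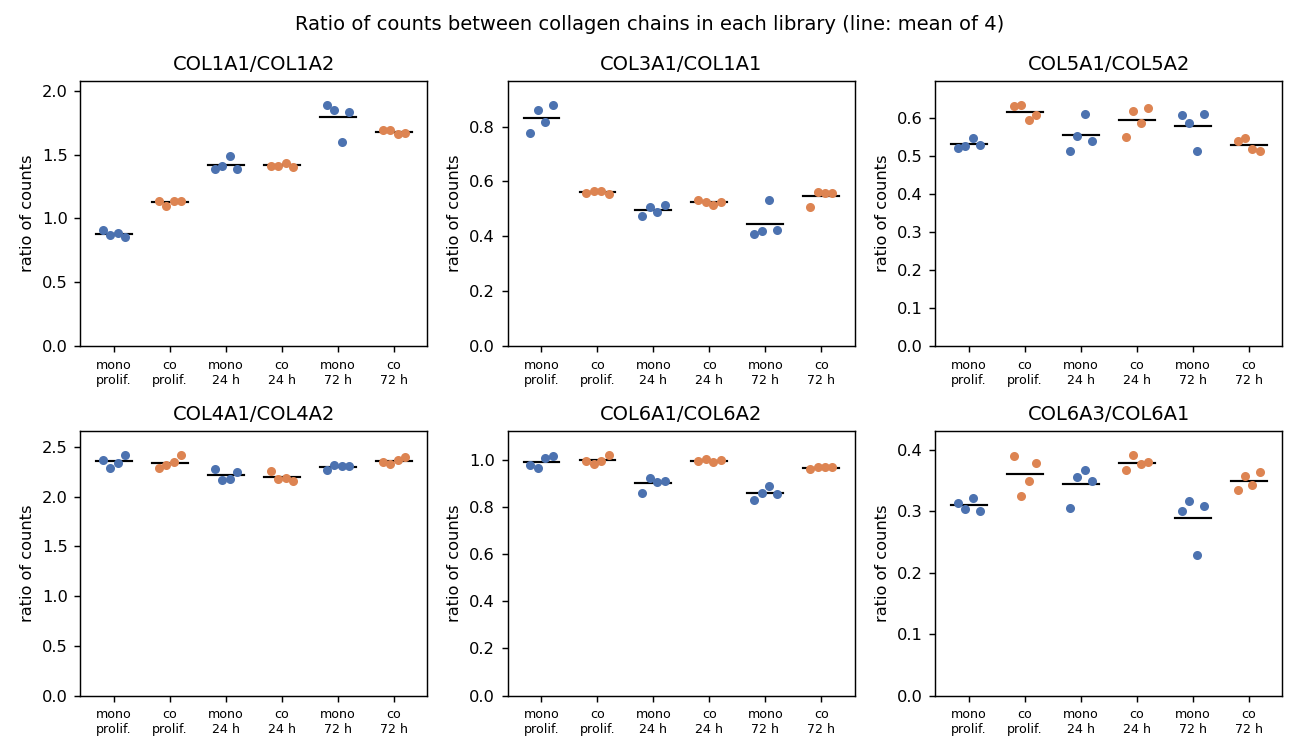
Ratio of counts between 2 collagen chains (vertical axis, starting at 0) in each of the 24 libraries, monoculture in blue and coculture in orange, with the mean of each group of 4 as a line. COL4A1 over COL4A2 is nearly level, COL1A1 over COL1A2 is higher at each later time, and COL3A1 over COL1A1 is highest in monoculture in proliferation.

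The proteins that fold, trim, bind and break down collagen were taken as lists of genes and compared between cultures in the same fit, and the values in parentheses are log2 fold changes of coculture over monoculture. Of all genes 59%, 23.8% and 50.5% were called at the 3 times, with medians of 0.00. Of 23 listed genes of procollagen folding and export, 11 rose and 8 fell in coculture in proliferation, 7 and 2 at 24 h, and 6 and 11 at 72 h, with medians of 0.09, -0.06 and -0.10. FKBP14, a prolyl isomerase of the endoplasmic reticulum (-0.53), fell in proliferation, and PLOD1, a lysyl hydroxylase (0.45), rose. P4HA3, a subunit of prolyl 4-hydroxylase, rose at 24 h (0.47) and 72 h (0.84). P4HA1, another subunit, rose at 24 h (0.26), and P3H4, part of a hydroxylation complex, fell at 72 h (-0.44). Of 11 listed genes of trimming and crosslinking, 8 rose and 2 fell in coculture in proliferation, 2 and 5 at 24 h, and 3 and 7 at 72 h, with medians of 0.34, -0.09 and -0.22. ADAMTS14 (0.55) and ADAMTS2 (0.53), which remove the amino propeptide of fibrillar procollagens, rose in proliferation. At 24 h ADAMTS2 rose (0.33) and LOXL4, a crosslinking lysyl oxidase, fell (-0.34). At 72 h ADAMTS14 (-1.64) and LOXL4 (-1.34) fell most.

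The list of collagen breakdown pools proteases with their inhibitors, the TIMP genes, so its counts and medians give no direction of breakdown. Of its 9 listed genes, 4 rose and 4 fell in coculture in proliferation, 1 and 8 at 24 h, and 1 and 6 at 72 h. The medians were 0.08, -0.37 and -0.28. MMP15, a membrane-bound protease, rose in proliferation (0.60) and fell at 24 h (-0.56), and its relative MMP14 also fell at 24 h (-0.42). TIMP3, an inhibitor of such proteases, fell in proliferation (-0.58) and at 72 h (-0.67), and CTSK, a lysosomal protease that cuts collagen, fell at 72 h (-0.62). Of 7 listed collagen receptors, 2 rose and 2 fell in coculture in proliferation, 3 and 3 at 24 h, and 2 and 4 at 72 h, with medians of -0.06, -0.09 and -0.24. MRC2, which takes up collagen for breakdown, rose in proliferation (0.61) and fell at 72 h (-0.40). ITGB1, the beta chain of the collagen-binding integrins, fell in proliferation (-0.33). Its partner ITGA11 rose (0.43) and its partner ITGA10 fell (-0.59) at 24 h, and DDR1, a receptor kinase, fell at 72 h (-0.55). Of 14 listed fibril-associated proteins, 6 rose and 3 fell in coculture in proliferation, 3 and 6 at 24 h, and 4 and 9 at 72 h, with medians of 0.04, -0.04 and -0.19. TNXB, a tenascin that binds fibrils, fell at all 3 times (-1.11, -1.38 and -2.06). The small proteoglycan ASPN fell in proliferation (-1.58), DCN rose at 24 h (0.76), and the matricellular THBS2 rose at 72 h (1.05). Of 25 listed regulators of collagen transcription, 9 rose and 3 fell in coculture in proliferation, 11 and 2 at 24 h, and 9 and 7 at 72 h, with medians of 0.08, 0.12 and 0.06. TGFB1, a growth factor known for raising collagen transcription (0.69), and CREB3L1, a transcription factor of secretory cells (0.59), rose in proliferation. RUNX1, a transcription factor, rose at 24 h (1.01) and 72 h (1.22). SMAD7, an inhibitor of TGF-beta signalling, fell at 24 h (-0.67), and TGFBR1, a TGF-beta receptor, rose at 72 h (1.14).

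In the authors' deposited tables, which hold 1 comparison of the cultures per time, 13 collagens were called higher and 4 lower in proliferation, 1 and 10 at 24 h, and 0 and 10 at 72 h, at an adjusted p under 0.05. The calls there matched those above for 20, 20 and 22 of the 23 genes. The authors' deposited tables differ for COL3A1, COL5A3 and COL8A2 in proliferation, COL4A1, COL4A2 and COL14A1 at 24 h, and COL1A2 at 72 h.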

How the data were processed

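RNA was measured by sequencing in 24 libraries made from 400 ng of total RNA each, 4 per group, grouped by their titles. The authors deposited a table of counts, whole numbers of reads per gene and library; the submitters' processing notes name FastQC, STAR, RSEM and DESeq2, without versions. No build is named in the sources used here, and the counts may be rounded RSEM estimates. A further 12 library columns carry names found in no label and were left out of every step. By their headers, 3 deposited tables hold the authors' log2 fold change, its standard error, and p-values. The direction, coculture over monoculture, was read from the counts, and the time of each from its name. These tables serve only where the text names them.

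Counts of all 11937 genes were fitted in R 4.3.3 with edgeR 4.0.16 (TMM factors, 1 mean per group, 18 residual degrees of freedom). The filterByExpr rule removed 0 genes. Each comparison used the quasi-likelihood F test with Benjamini-Hochberg adjustment over all genes, called at an adjusted p under 0.05, and the SE is the log2 fold change divided by the root of F. Levels are CPM, counts scaled to a common total by the TMM factors, as mean ± SD. No lane or batch term was fitted. Totals ran from 11.5 to 34.96 M counts, and edgeR's biological coefficient of variation was 6.86%. The fit was tested on simulated data. Between replicates, chi-square per degree of freedom was at least 2.16, more than sampling of reads alone would give, and no library was left out as a repeat. Libraries made separately from 1 culture or 1 RNA cannot be told from separate cultures in this way.

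The collagens and all gene lists were chosen with earlier results of these data known. Named were the chains of types I, III, IV, V, VI and XVIII, up to 3 collagens of the largest rise and fall called per comparison, and up to 2 genes of the largest called difference per list and time. Lists cover collagen folding, trimming, breakdown, receptors, fibril-associated proteins and regulators, and markers of 8 cell types. Alternatives were DESeq2 1.42.0 (test and size factors), library sizes alone, scaling without collagens, a mean of at least 5 CPM, a test against a fold of 1.2, only the groups compared, a replicate block, a lane covariate, single lanes, and leaving out the 4 libraries richest in ribosomal RNA or each library in turn.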

Additional observations from a re-analysis of the deposited data

Results flagged for a closer look

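In 13 of 144 groups of 4 values, 1 library lay far from the other 3 by Dixon's test at 95%, where chance gives about 7.2. The library was the highest for COL3A1 in replicate 3 of monoculture 72 h, at 33378 CPM against 24930.0 to 26002, COL5A1 in replicate 3 of monoculture 24 h, at 3205 CPM against 2611 to 2676 and COL27A1 in replicate 4 of coculture 24 h, at 11.1 CPM against 9.81 to 9.85. It was also the highest for COL14A1 in replicate 4 of coculture 72 h, at 375 CPM against 354 to 356, COL7A1 in replicate 1 of monoculture proliferation, at 8.32 CPM against 5.88 to 6.27 and COL8A2 in replicate 4 of coculture proliferation, at 7.39 CPM against 5.55 to 5.70. It was the lowest for COL24A1 in replicate 1 of monoculture 24 h, at 1.63 CPM against 2.30 to 2.42, COL4A1 in replicate 2 of coculture 72 h, at 4782 CPM against 5026 to 5069.8 and COL15A1 in replicate 2 of monoculture proliferation, at 602 CPM against 632 to 635. The lowest was also found for COL18A1 in replicate 3 of monoculture 72 h, at 559 CPM against 1072 to 1161, COL6A5 in replicate 3 of monoculture proliferation, at 7.49 CPM against 7.74 to 7.78 and COL8A2 in replicate 2 of coculture 24 h, at 7.31 CPM against 8.87 to 9.09. The collagen share of all counts in replicate 3 of monoculture 24 h was 14.5% against 13.5 to 13.6%. Replicate 3 of monoculture 72 h and replicate 3 of monoculture 24 h each appear 2 times in this list, and the other 9 libraries in it once.

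The coculture difference was tested for change between the times by edgeR's quasi-likelihood test, and it changed at an adjusted p under 0.05 for 19 collagens from proliferation to 24 h and for 11 from 24 h to 72 h. Values are changes, on the log2 scale, of the ratio of coculture to monoculture. In the first step they were, for fibrillar genes, COL1A1 (-0.54), COL1A2 (-0.18), COL5A1 (-0.31), COL5A2 (-0.19), COL11A1 (0.19) and COL27A1 (-0.91). For basement membrane genes they were COL4A1 (-0.64), COL4A2 (-0.63), COL15A1 (-0.66) and COL18A1 (-0.48). The FACIT genes gave COL14A1 (-0.32) and COL16A1 (-0.24). The remaining genes gave COL6A1 (-0.60), COL6A2 (-0.74), COL6A3 (-0.69), COL6A5 (0.45), COL7A1 (-0.93), COL8A1 (-0.20) and COL8A2 (-0.52). In the second step the fibrillar genes gave COL1A1 (-0.17), COL5A3 (-0.76), COL11A1 (-0.40) and COL27A1 (-0.49). The basement membrane genes gave COL4A1 (-0.29), COL4A2 (-0.34) and COL15A1 (0.33), and of the remaining types COL6A1 (-0.14), COL6A2 (-0.16), COL8A1 (0.35) and COL8A2 (-0.87). Positive values, where coculture gained on monoculture, were those of COL11A1 and COL6A5 in the first step and COL15A1 and COL8A1 in the second.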

How the results depend on the processing

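Tested against a fold of 1.2, the counts of collagen genes called fell from 16 to 8 in proliferation, from 8 to 2 at 24 h and from 11 to 7 at 72 h for coculture over monoculture, from 18 to 12 for 24 h over proliferation in coculture (22 stayed 22 in monoculture), from 18 to 11 and from 17 to 9 for 72 h over 24 h in monoculture and coculture, and from 19 to 9 and from 11 to 2 for the changes of the difference. With library sizes alone the last count was 7, the splits were 9 and 4, 3 and 9, and 8 and 9 for proliferation, 72 h and monoculture 72 h over 24 h, and COL1A2 at 72 h (0.011) and COL6A1 in monoculture from 24 h to 72 h (-0.0295) turned sign; the median of all genes moved by 0.13 and -0.13 in the latter comparisons. Over the fits that leave out 1 library the counts ran from 15 to 17, 8 to 10 and 10 to 15 for the 3 times (15 without replicate 3 of monoculture 72 h), 22 to 23 and 18 to 18 for 24 h over proliferation, 17 to 18 and 14 to 17 for 72 h over 24 h, and 17 to 19 and 8 to 15 for the changes, in the order used above. Per gene, 1940 such values kept their side of the threshold, 20 gained and 64 lost a call, and none turned sign with a call in either fit. Sign changes of genes called in neither fit were counted as kept. Under the other alternatives, counted in the same way, 1991 were kept, 36 gained, 101 lost and 2 turned. With the replicate block the counts were 16, 8, 11, 22, 18, 18, 17, 19 and 10. Without the 4 libraries richest in ribosomal RNA they were 17, 11, 14, 23, 18, 18, 17, 21 and 13. The splits were then 2 higher and 9 lower at 24 h and 1 higher and 13 lower at 72 h for coculture over monoculture. Correlations of same-numbered libraries ran from -0.14 to 0.12, and at most 2 of 4 correlated best with their own number, so the numbers were not taken to pair libraries. COL24A1 had the fewest counts, 10 to 55 per library, and SEs of 0.17 to 0.21 between cultures.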
